A study of Mus musculus with 2 samples.

Results

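The genes described here are 10 mitochondrial fusion and fission genes of the mouse, taken by name (Mfn1, Mfn2, Opa1, Dnm1l, Fis1, Mff, Mief1, Mief2, Oma1 and Yme1l1) out of 21000 protein-coding genes with a known RefSeq transcript. They were read against NRF1 ChIP-seq of skeletal muscle from wild-type mice, in which an antibody against the transcription factor NRF1 recovers the DNA that it occupies and sites of occupancy are called as peaks. Both of the 2 libraries are labelled with the NRF1 antibody, the wild-type genotype and skeletal muscle, with no treatment, age, sex or strain in the labels; yet a reporting summary of the study lists the replicate 2 library as input DNA. Of these libraries only 1 list of 3226 peaks was used, and the peak names bear the title of replicate 1. There is thus no replicate error for any value below, read depth is unknown, and no test was possible. Nuclei came from whole muscle, so that a peak cannot be assigned to myofibers or to the other cells of the tissue.

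Mitochondria fuse and divide continuously, and in muscle this balance sets the shape of the network that lies between the myofibrils. The mitofusins join outer membranes and OPA1 joins inner membranes, whereas the GTPase DRP1, encoded by Dnm1l, is recruited from the cytosol by receptors of the outer membrane and constricts the organelle. OMA1 and YME1L are inner membrane proteases that cut OPA1 and so tune fusion. NRF1, nuclear respiratory factor 1, binds as a dimer to a GC-rich palindrome in the promoters of many nuclear genes for mitochondrial proteins.

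An NRF1 peak was found at the promoters of 4 of the 10 genes (40.0%), namely Opa1, Fis1, Oma1 and Yme1l1. A promoter peak is one whose summit, its point of highest signal, lies from 1000 bp before to 100 bp after a known RefSeq start. Of all 21000 protein-coding genes, 2808 had one, or 13.4%. By role, the peaks fell at 1 of the 3 fusion genes, 1 of the 5 fission genes and both of the 2 protease genes. None was found at Mfn1, Mfn2, Dnm1l, Mff, Mief1 or Mief2. The 10 genes have 15 different starts, of which 4 had a summit in the promoter window.

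The sequences under these summits are shown because they separate the 4 promoters. The NRF1 motif was taken as the half-site GCGCA followed by its reverse complement, GCGCATGCGC, a word that reads the same on both strands, with at most 1 mismatch. Capitals mark the best match to it in each window of 30 bases, written along the strand of the gene from GRCm38 (mm10). The windows are chr16:29579265-29579294 for Opa1, chr4:103313813-103313842 for Oma1 and chr2:23155941-23155970 for Yme1l1, all on the plus strand. Opa1 held the exact word, Oma1 a word with 1 mismatch and Yme1l1 a word with 2 mismatches, which does not count as the motif.
Opa1: gtggctccccGCGCATGCGCatgtcatccg
Oma1: ggaaaggtgtGCGCCTGCGCggagccggct
Yme1l1: acgtcaccgcGCGTCTGCGCtctgccggct

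For Fis1 no word came closer than 3 mismatches, and the 121 bases around its summit (chr5:136953096-136953216, plus strand) are shown instead, with the summit at base 61. Capitals mark TGCGC, the reverse complement of the half-site, which overlaps a copy of GCGCA itself that begins 1 base later.
Fis1: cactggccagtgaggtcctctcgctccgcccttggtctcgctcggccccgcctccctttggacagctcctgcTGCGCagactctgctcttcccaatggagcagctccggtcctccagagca

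Among the fusion genes, Opa1 (chr16:29579334-29654602, plus strand) encodes the dynamin-related GTPase of the inner membrane. Its peak spanned chr16:29579158-29579489, a width of 332 bp, with the summit at base 29579282, which is 52 bp before the start. The fold enrichment, the authors' ratio of signal at the summit over the control background, was 25.4. This placed it at rank 141 of the 2607 promoter peaks, whose median was 11.1 (quartiles 7.90 and 16.4), and 94.6% of them had a lower value. The −log10 q-value was 79.3, against a median of 25.3 over promoter peaks. The exact motif at chr16:29579275-29579284 lay under the summit, its centre at −2.5 bp from it. No other known gene shares this promoter peak.

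The mitofusins, the GTPases that tether and fuse outer membranes, had no promoter peak. The summit nearest to Mfn1 (chr3:32529482-32579225, plus strand) was 18917 bp before its start, at the promoter of Zfp639, where the fold enrichment was 15.1. For Mfn2 (chr4:147873586-147904909, minus strand), with 3 known starts, the nearest summit was 653518 bp away, at the promoter of Exosc10, with a fold enrichment of 4.49. Mfn1 thus had the nearest and Mfn2 the farthest neighbouring summit of the 6 genes without a peak.

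Among the fission genes, Fis1 (chr5:136953275-136966234, plus strand) encodes a small tail-anchored protein of the outer membrane. The peak at chr5:136953038-136953303 was 266 bp wide and had its summit at base 136953156, 119 bp before the start that 2 known transcripts use. The other known start of Fis1, at base 136962077 and used by 1 transcript, had no peak, the same summit lying at −8921 bp from it. The fold enrichment was 16.8, at rank 599 of 2607 (76.9% lower), and the −log10 q-value was 48.2. Of the 888 promoter peaks without the motif, 96 reached at least that fold enrichment. The half-site TGCGC at chr5:136953168-136953172 began 12 bp after the summit, and GCGCA at chr5:136953169-136953173 overlapped it. Such a half-site, on either strand, lay within 100 bp of the summit in 789 of the 888 promoter peaks without the motif (88.9%). Over all 2607 promoter peaks the number was 2508 (96.2%), but a word with at most 1 mismatch always keeps a half-site. The 1719 peaks with the motif therefore held one by definition. Of 26208 protein-coding starts, not matched to the peaks for base content, 34.0% had one. This search was added after the Fis1 sequence had been seen.

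No promoter peak was found for the GTPase gene Dnm1l or for the genes of its other outer membrane receptors, Mff, Mief1 (MiD51) and Mief2 (MiD49). Mief2 (chr11:60728398-60732951, plus strand) had a summit 28729 bp before its start, at the promoter of Llgl1, with a fold enrichment of 18.8. For Dnm1l (chr16:16312228-16359031, minus strand) the nearest summit was 55664 bp after a start, 54 bp before that of Yars2, with a fold enrichment of 9.65. The nearest summits of Mief1 (chr15:80234080-80253372, plus strand) and Mff (chr1:82724890-82752390, plus strand) were 100784 bp before and 313266 bp after a start, in introns of Tab1 and Slc19a3, and outside of promoters. Their fold enrichments were 10.1 and 5.72.

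None of the 6 genes without a promoter peak held a summit within its gene body, and of all protein-coding genes without a promoter peak 2.35% held one. All 6 were more than 10 kb from the nearest summit. Their median distance was 78224 bp. Over the 18192 protein-coding genes without a promoter peak, the median was 186975 bp (quartiles 58885 and 585252), and 94.8% were more than 10 kb away. Mfn1 was closer to a summit than most of them, with 9.21% nearer still, while for Mfn2 77.1% were nearer. Since depth is unknown, a promoter with occupancy under the threshold of the peak caller cannot be told apart from an unoccupied one.

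**Figure D1:**
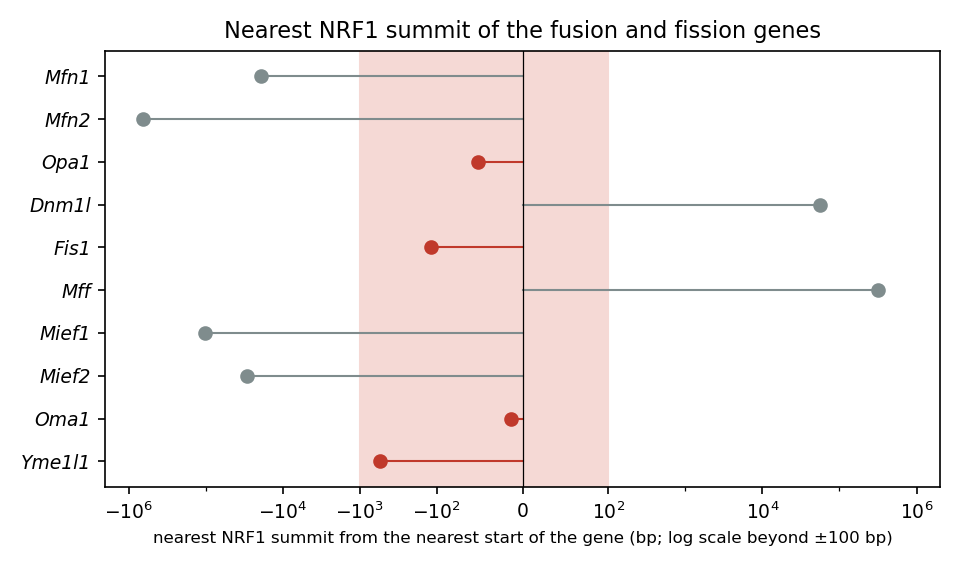
Distance in bp (log scale beyond 100 bp) from the nearest start of each of the 10 genes to the nearest NRF1 summit, negative before the start, with the promoter window shaded and genes with a promoter peak in red. Opa1, Fis1, Oma1 and Yme1l1 lie within 1000 bp, whereas the other 6 genes lie between 18917 and 653518 bp away.

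Both protease genes had a promoter peak. Oma1 (chr4:103313846-103366428, plus strand) encodes the metalloprotease that cleaves OPA1 under stress. Its peak at chr4:103313702-103313999, 298 bp wide, had the summit at base 103313832, only 14 bp before the start. The fold enrichment of 17.6 ranked 508 of 2607 (80.5% lower) and the −log10 q-value was 39.0. The word with 1 mismatch at chr4:103313823-103313832 ended at the summit base.

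Yme1l1 (chr2:23156505-23199260, plus strand) encodes the ATP-dependent protease that processes OPA1 at a separate site. Its peak was the weakest and the most distant of the 4. It spanned chr2:23155846-23156084, 239 bp, and the summit at base 23155955 lay 550 bp before the start. The fold enrichment was 5.68, at rank 2377 of 2607 (8.71% lower), and the −log10 q-value was 8.45. The same summit lay 69 bp after the start of Mastl, a gene for a mitotic kinase on the opposite strand, and within its 5′ UTR, so that the peak counts for both genes and cannot be assigned to Yme1l1 alone. With a window of 500 bp on either side of a start, Yme1l1 was no longer counted.

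**Figure D2:**
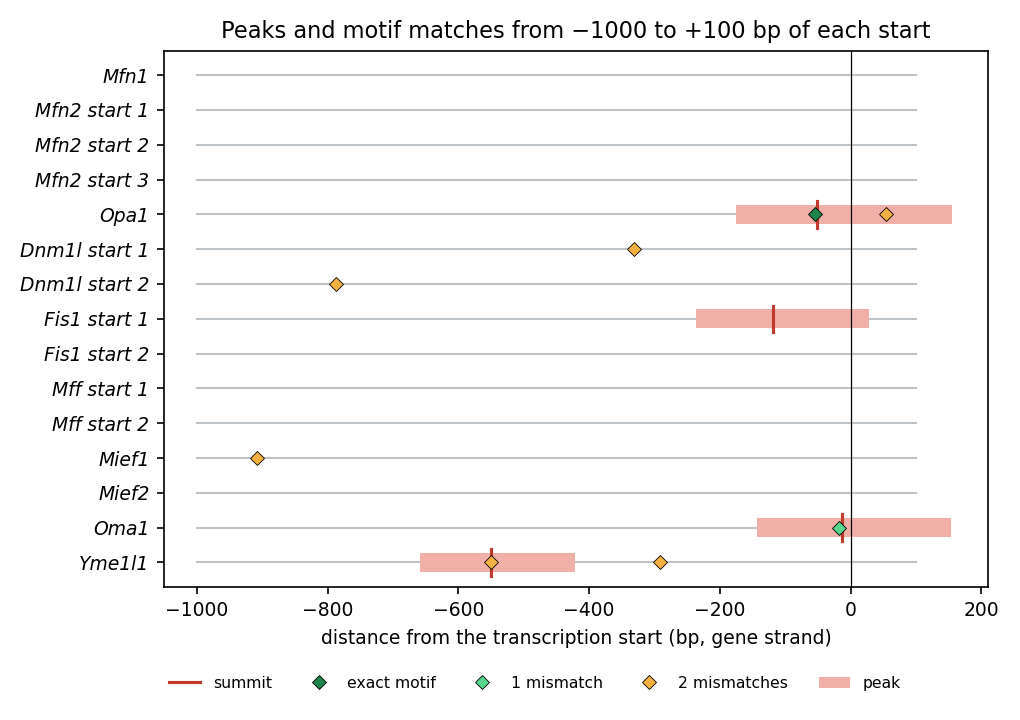
Promoter windows of the 15 starts of the 10 genes (grey lines) by distance in bp from the start, with peaks (bars), summits (red lines) and words with at most 2 mismatches to the NRF1 motif (diamonds, coloured by mismatches). The summits of Opa1, Fis1 and Oma1 lie 52, 119 and 14 bp before the start, and that of Yme1l1 lies 550 bp before it.

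The 4 summits were 14 to 550 bp before a start, and the median over all promoter peaks was −50 bp (quartiles −116 and −7 bp). The distances of Opa1 and Oma1 were inside these quartiles, that of Fis1 was just outside and that of Yme1l1 was far outside. All of these distances are to known starts. With predicted starts included, the summit of Opa1 lay 1 bp after its nearest start and that of Yme1l1 513 bp after. Those of Fis1 and Oma1 did not change. The summit bases of Opa1, Fis1 and Oma1 lay in no known transcript. Fold enrichments ranged from 5.68 to 25.4, with a median of 17.2. The values of Opa1, Fis1 and Oma1 were above the upper quartile of all promoter peaks and that of Yme1l1 was below the lower quartile.

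**Figure D3:**
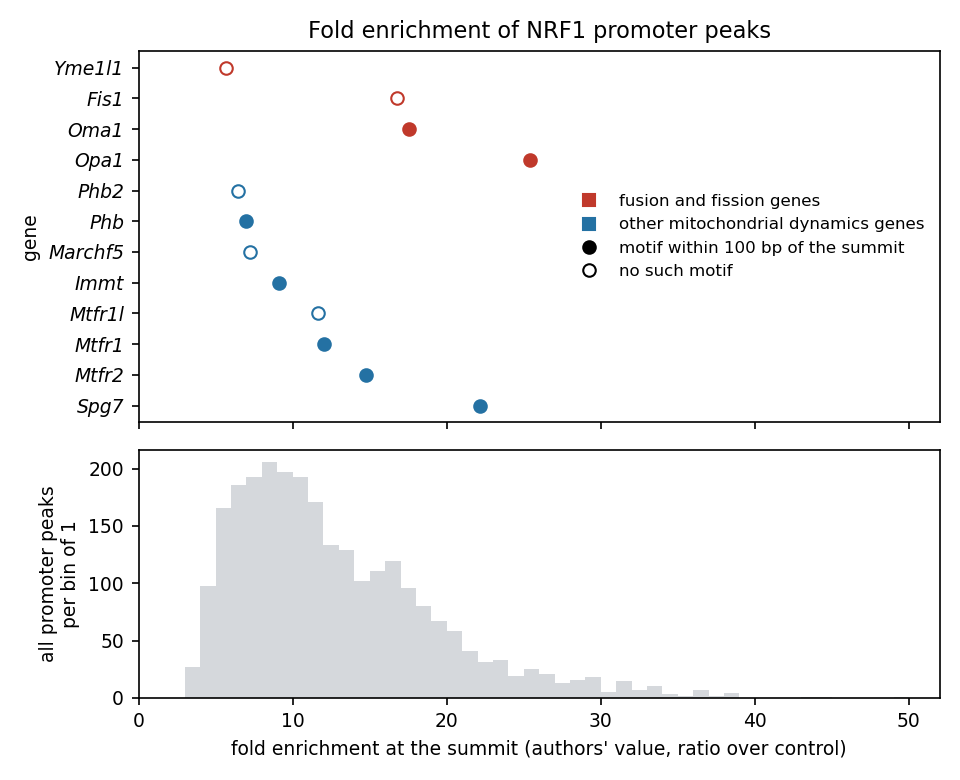
Upper panel, fold enrichment of the promoter peaks of the fusion and fission genes (red) and of other mitochondrial dynamics genes (blue), filled where the motif lay within 100 bp of the summit; lower panel, number of all promoter peaks per bin of 1 in fold enrichment. Opa1 at 25.4 and Spg7 at 22.2 are the highest of the genes shown, and Yme1l1 at 5.68 is the lowest.

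The motif was next compared between the promoters with and without a peak. It lay within 100 bp of the summit in 2 of the 4 peaks (Opa1 and Oma1), against 65.9% of all promoter peaks. In the whole promoter window it was present in the same 2 of the 10 genes, against 12.1% of all protein-coding genes. None of the 6 genes without a peak held it, and of all protein-coding genes without a promoter peak 3.45% did. Over all protein-coding genes with the motif in the promoter, 75.4% had a promoter peak, against 4.81% of those without it. Opa1 and Oma1 belonged to the former genes, whereas Fis1 and Yme1l1 were among the 888 genes with a peak but without the motif in the window.

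Graded by the fewest mismatches in the promoter, Opa1 had 0, Oma1 had 1, Yme1l1, Dnm1l and Mief1 had 2, Fis1, Mff, Mfn2 and Mief2 had 3, and Mfn1 had 4. Of the 368 protein-coding genes with the exact word, 89.4% had a promoter peak (95% Wilson interval 85.8 to 92.2, which covers counting error only). This share was 73.0% (71.1 to 74.8) at 1 mismatch, 13.9% (13.0 to 14.9) at 2, 1.44% (1.23 to 1.69) at 3 and 0.108% (0.0368 to 0.318) at 4 or more. Fis1 was therefore in a class of 10406 genes of which few had a peak, and Yme1l1 shared its class with Dnm1l and Mief1, which had none.

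**Figure D4:**
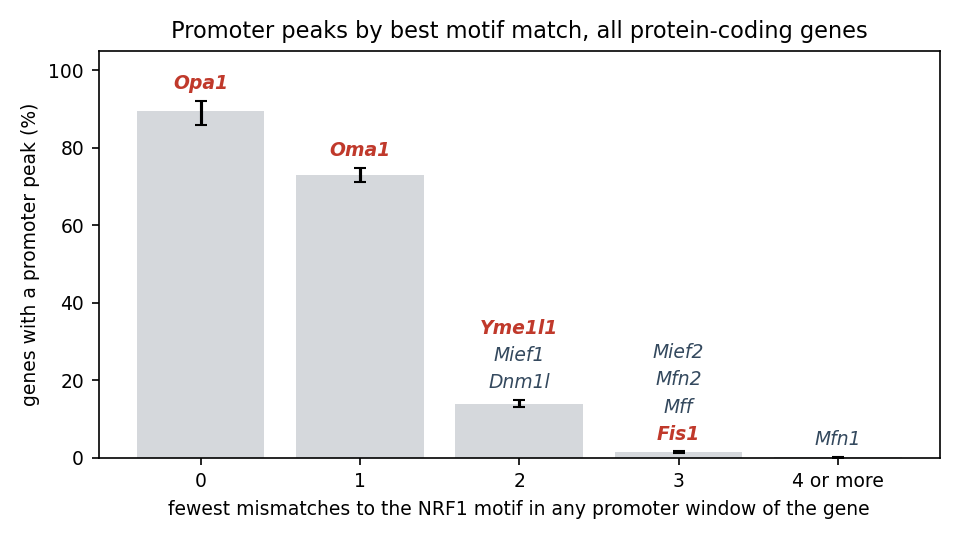
Share of protein-coding genes with a promoter peak (percent, bars with 95% Wilson intervals) by the fewest mismatches to the NRF1 motif in the promoter, with the 10 genes placed in their class. The share falls from 89.4% with the exact word to 0.108% at 4 or more mismatches; Fis1 is the only gene of the list with a peak at 3 mismatches.

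The words with 2 mismatches at Dnm1l and Mief1 are shown beside that of Yme1l1 above, because the same number of mismatches went with a peak at only 1 of the 3 genes. They are written along the gene's strand, from chr16:16359348-16359377 (minus strand) and chr15:80233157-80233186 (plus strand), with the word in capitals.
Dnm1l: gctgggataaAGGCATGCGCcatcactgcc
Mief1: atcccagattGCCCATGCTCtgtgaaacct

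These words differed in how often they lay under a peak over all protein-coding promoters. The words were taken from these genes with their peaks known, so the shares are a description. The word at the summit of Yme1l1, GCGTCTGCGC, occurred 83 times in protein-coding promoters, and 48 copies (57.8%) had a summit within 100 bp. The word of Dnm1l, AGGCATGCGC, had a summit at 5 of 170 copies (2.94%) and that of Mief1, GCCCATGCTC, at 1 of 62 (1.61%). By comparison, the share was 82.9% for the exact word of Opa1 (286 of 345 copies) and 77.3% for the word of Oma1, GCGCCTGCGC (669 of 865). The copies at these genes are among those counted. Whether copies of a word lie in repeats, where unique mapping removes signal, was not tested. Promoters with a peak also held words away from the summit. The other word of Yme1l1 with 2 mismatches, CCGCATGAGC, which began 296 bp before the start, had a summit at 0 of 6 copies, and GTCCATGCGC, 50 bp after the start of Opa1, at 3 of 13 (23.1%).

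The CpG ratios of genes with and without a peak overlapped. A promoter was called CpG-rich when, within 200 bp of a start, GC content reached 50% and CpG dinucleotides reached 0.6 of the number that the base content predicts (the CpG ratio). All of the 10 genes except Fis1 met this, or 9 genes, of which 3 had a promoter peak. Of all 21000 protein-coding genes, 11565 met it. Over all CpG-rich protein-coding genes 23.1% had a promoter peak, against 1.43% of the other genes, to which Fis1 belonged. The highest CpG ratio at a start of Fis1 was 0.574, although the ratio within 100 bp of its summit was 0.694 with a GC content of 67.2%. Opa1 had 0.685 at its start, Oma1 0.861 and Yme1l1 0.928. By the highest ratio of each gene, those without a peak ran from 0.766 for Mfn1 to 1.03 for Mff, which had the highest of all 10 and no peak.

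**Figure D5:**
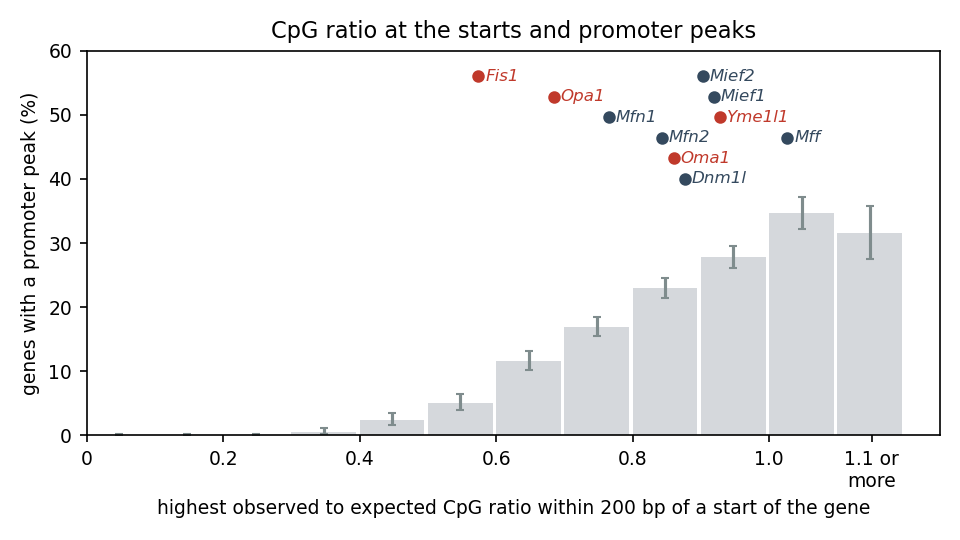
Share of protein-coding genes with a promoter peak (percent, bars with 95% Wilson intervals) by the highest CpG ratio at a start, with the ratios of the 10 genes as points (red with a peak, dark without; their height has no meaning). Fis1 at 0.574 has the lowest ratio and a peak, and Mff at 1.03 has the highest and none.

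The 10 genes were then set beside 34 other genes of mitochondrial dynamics, of which 8 (23.5%) had a promoter peak. This is close to the 23.1% of all CpG-rich genes with one. Of the 34, 32 were CpG-rich, against 11565 of all 21000 protein-coding genes. The peaks were at 3 of 6 genes of the prohibitin scaffold and inner membrane proteases, 3 of 8 genes of fission factors, 1 of 3 genes of ubiquitin and SUMO enzymes of the outer membrane and 1 of 9 genes of the MICOS complex, which shapes cristae, and its partners. None of 4 genes of outer membrane fusion factors and none of 4 genes of mitochondrial transport had one. With so few genes in each role, and 13.4% of all protein-coding genes with a peak, these counts are given as a description.

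Spg7, which encodes the paraplegin subunit of an inner membrane protease, had the highest fold enrichment of the 8 at 22.2, with its summit 58 bp before the start. Those of Phb and Phb2, the prohibitins that scaffold inner membrane proteases, were 6.97 and 6.44, close to that of Yme1l1, and the summit of Phb lay 34 bp after its start, in the 5′ UTR. The peak of Phb2 is shared with Emg1, whose start lay 11 bp after the summit. Of the genes for mitochondrial fission regulators, Mtfr2 reached 14.8, Mtfr1 12.0 and Mtfr1l 11.7. Marchf5, a ubiquitin ligase of the outer membrane, had 7.23 at a peak shared with Cpeb3, and Immt, the core subunit of MICOS, had 9.14. The median of the 8 was 10.4, and Opa1 was above all of them.

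The motif lay within 100 bp of the summit at 5 of these 8 genes, and 3 (Phb2, Mtfr1l and Marchf5) were without it, like Fis1 and Yme1l1. The words are shown for comparison with Opa1 and Oma1, in capitals and along the plus strand, which is the strand of all 5 genes. They come from chr10:20347681-20347710 (Mtfr2), chr8:123065432-123065461 (Spg7), chr3:19188059-19188088 (Mtfr1), chr6:71831311-71831340 (Immt) and chr11:95666977-95667006 (Phb). Mtfr2 held the exact word of Opa1, and the other 4 held a word with 1 mismatch.
Mtfr2: ggggcacggtGCGCATGCGCctttcgaatg
Spg7: cttcaaccccGCGCAAGCGCaaagggaggc
Mtfr1: actgggcaccGCGCGTGCGCacagagcccg
Immt: ggaggaggcgGCGCGTGCGCagtggtgccg
Phb: gagctgcctgGCGCACGCGCagtatccgga

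Of the 26 other genes without a promoter peak, Pld6 and Micos10 held the motif in the promoter. Trak1, which encodes an adaptor for mitochondrial transport, was nearest to the window, with a summit 702 bp after a start, in its intron, and a fold enrichment of 7.70; it was singled out after its values had been seen.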

How the data were processed

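The labels describe 2 libraries of wild-type skeletal muscle, and 1 peak list was used. Per the study's methods, the authors mapped single-end reads of 50 bp to mm10 with Bowtie, kept uniquely mapped reads, removed a blacklist named for a human build and called peaks with MACS2 against input DNA, excluding false discovery rates above 0.01; the methods mention the broad option, but the list is in narrow-peak format, so it may not be the list behind the study's own count of sites. The deposited values used are fold enrichment (a ratio over control), −log10 q-value and summit offset. A q-value above 0.01 was held by 7 peaks, none of them named here. Read depth is unknown, which bears on every count of peaks. Unique mapping removes signal in repeats.

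From the list, summits were placed (Python 3.11.15, pandas 2.3.3, pysam 0.24.0) against 31603 starts of 45756 known RefSeq transcripts (NM and NR) of GRCm38, and sequences were read from the RefSeq genome of that assembly. The summit was taken as the base at the peak start plus the summit offset of the file. All 10 genes matched by symbol. The motif was searched on both strands, and matches are descriptions of letters. The motif search was tested on words planted in made-up sequences, and the promoter window on summits placed at its edges. The genes, lists and comparisons were chosen with earlier results of these data known. Genes named are all 10, genes sharing their peaks, and every gene with a promoter peak in the list of 34. Outside that rule, Emg1 and Cpeb3 were named as sharing peaks of genes in that list, genes at the nearest summits were named to place those summits, and Pld6, Micos10 and Trak1 were named after their values had been seen. Alternatives changed the window, starts, overlap, q-value, fold enrichment and motif rules.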

Additional observations from a re-analysis of the deposited data

How the results depend on the processing

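The number of the 10 genes with a promoter peak was 4 under 7 of the 8 alternatives run and 3 with a window of 500 bp on either side, where Yme1l1 dropped out and the median fold enrichment became 17.6. The count in the list of 34 was 8 under all 8. The share of all protein-coding genes with a promoter peak was 14.7% with 2000 bp before to 500 bp after a start, 14.1% with 500 bp on either side, 13.9% with predicted transcripts, 14.2% with any overlap of at least 1 bp, 12.8% at a q-value of at most 1e-05 and 12.8% at a fold enrichment of at least 5. With no mismatch allowed, 1 of the 4 peaks and 1 of the 10 genes' promoters held the motif, against 10.9% of all promoter peaks and 1.75% of all protein-coding genes. With 2 mismatches 3 peaks and 5 promoters did, against 91.0% and 37.3%. GENCODE M21 starts were an alternative chosen after seeing the data. Depth limits all calls of no peak. No paired analysis was possible because only 1 peak list was used, and for the same reason no replicate could be left out.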
